A study of Mus musculus with 6 samples.

Results

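Interferon-induced genes of the IFI27, IFI200 and IFITM families were followed in tumor-associated macrophages (TAMs) of mouse melanomas. The 10 genes were Ifi27l2a and Ifi27 (IFI27 family), Ifi203 and Ifi204 (IFI200 family), Ifitm1, Ifitm2, Ifitm3 and Ifitm6 (IFITM family), and Ifi35 and Ifi44. Each was found by its symbol in the deposited count table, where every one of the 10 symbols occurred once among 39179 genes. The macrophages were sorted from subcutaneous tumors of a Braf-driven melanoma cell line in C57BL/6 hosts that were 8 weeks old. In 3 samples the injected cells were wild-type for the cyclooxygenase genes Ptgs1 and Ptgs2 (Ptgs-competent), and in 3 samples both genes had been disrupted with CRISPR/Cas9 (Ptgs-deficient). The edit was in the tumor cells and not in the hosts, so that the macrophages of both groups carried the host genotype. Each library came from a pool of 10 tumors, and the spread between libraries is the spread between such pools. The sort took live CD45+ CD11b+ cells with F4/80 and with low or no Ly6C, and left out cells with NK1.1 or Ly6G.

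Interferons bind receptors that carry Janus kinases, which activate STAT and IRF transcription factors. These bind the interferon-stimulated response element (ISRE) or the gamma-activated site (GAS) near many of the genes they induce. IFITM proteins are small membrane proteins that block fusion of enveloped viruses with cell membranes. IFI200 proteins bind DNA and take part in innate DNA sensing, and IFI27 proteins are small hydrophobic proteins of intracellular membranes. Cyclooxygenases make prostaglandins, among them prostaglandin E2, which acts on myeloid cells. The comparison asks how the level of these genes in TAMs differed between tumors with and without the enzymes in the cancer cells.

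The libraries held 4431184 to 8760679 counts, and 8793 genes with enough counts were tested, including all 10 genes described here. The share of tested genes with 0 counts ran from 3.40% to 21.6% of a library. Pearson correlations of log2 counts (scaled to library size) across genes were 0.526 to 0.607 among Ptgs-competent libraries, 0.660 to 0.772 among Ptgs-deficient libraries and 0.462 to 0.677 between the groups. Ptgs1 had 197, 397 and 465 counts in Ptgs-competent TAMs and 110, 237 and 206 in Ptgs-deficient TAMs, and Ptgs2 had 80, 323 and 465 against 55, 451 and 93. Since the macrophages were not edited, these counts do not check the tumor genotype. Of the 12 macrophage markers listed, all had counts. Their summed level was 16331, 17681 and 6440 CPM (counts scaled to a common library size) in Ptgs-competent replicates 1, 2 and 3, and 20495, 20014 and 23586 CPM in Ptgs-deficient replicates. Ptgs-competent replicate 3 thus held the lowest marker sum as well as the fewest counts. Without it, the groups were separated for 7 of the 10 genes in place of 5, 5 higher and 2 lower, and separation is easier with 2 libraries against 3, holding then for 16.7% and 13.2% of all tested genes. Leaving out Ptgs-deficient replicate 1 also gave 7, of which 6 were higher and 1 lower, beside 18.4% and 11.1%. Leaving out Ptgs-competent replicate 1 or 2 or Ptgs-deficient replicate 2 or 3 gave 5 each time, 4 higher and 1 lower, beside 20.2% and 14.3%, 15.6% and 13.4%, 14.3% and 11.2%, and 14.3% and 10.7%.

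The 10 genes took 0.284%, 0.238% and 0.158% of all counts in Ptgs-competent TAMs and 0.433%, 0.543% and 0.524% in Ptgs-deficient TAMs. Levels are given below as CPM after TMM scaling, which corrects for library size and composition, in the order of replicates 1, 2 and 3. Calls required a false discovery rate (adjusted p) of at most 0.05 together with a log2 fold change of at least 1.5 in size. One of the 10 genes, Ifi27l2a, was called higher in Ptgs-deficient TAMs, where 0.159% of all tested genes were called higher. None was called lower by edgeR's quasi-likelihood test, against 0.0569% of all tested genes, while DESeq2 called 2 of the 10 higher (Ifi27l2a and Ifi204) and 1 lower (Ifitm1), with 1.97% and 1.76% of all tested genes called in each direction by that test. At an unadjusted p under 0.05, 3 genes (Ifi27l2a, Ifi204 and Ifitm3) were higher, beside 5% of all tested genes, and 1 gene (Ifitm1) was lower, beside 3.82%. By CPM, the groups were separated without overlap for 4 genes that were higher (Ifi27l2a, Ifi203, Ifi204 and Ifitm3) and for 1 that was lower (Ifitm1), which held for 11% and 8.01% of all tested genes. The median log2 fold change was 1.15 for the 10 genes, with 7 fitted higher and 3 lower, and 0.018 for all tested genes, of which 50.7% were fitted higher. In bulk RNA, fewer cells of a type and less RNA per cell cannot be told apart.

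**Figure D1:**
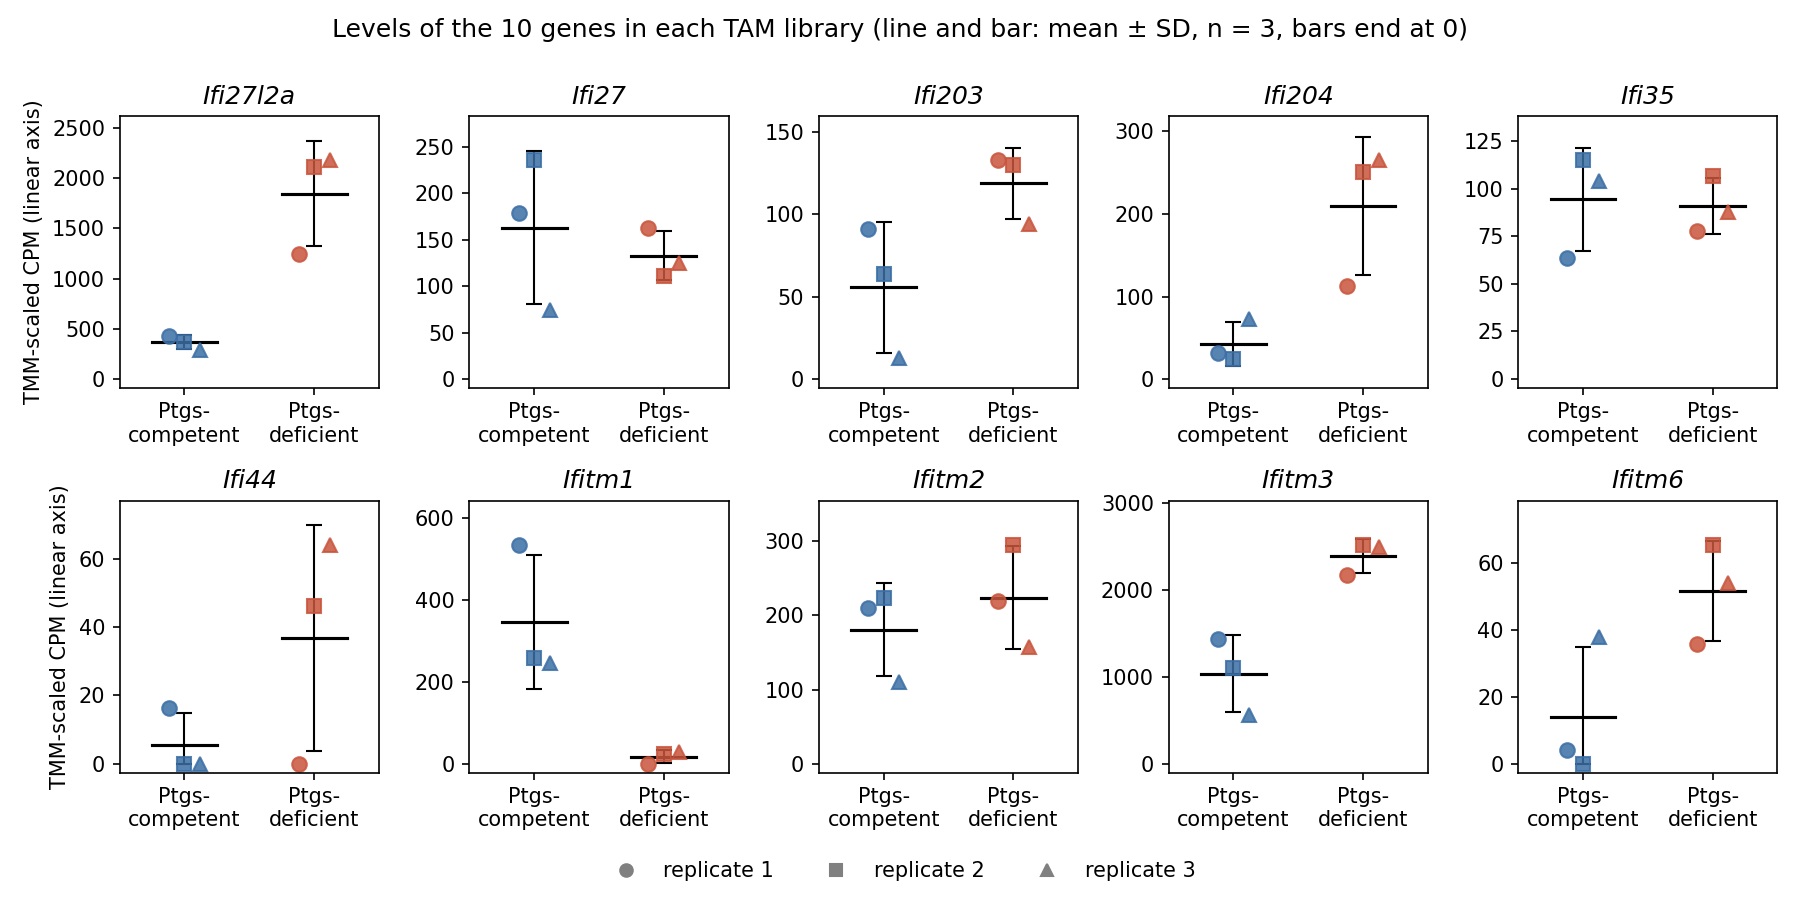
TMM-scaled CPM (linear axis, one scale per gene) of the 10 genes in each library, with Ptgs-competent libraries on the left and Ptgs-deficient libraries on the right of each panel. Lines and bars are the mean ± SD of 3 libraries, with bars ending at 0, and symbols mark replicates. The Ptgs-deficient points of Ifi27l2a, Ifi203, Ifi204 and Ifitm3 lie above every Ptgs-competent point, those of Ifitm1 lie below, and the groups overlap for the other 5 genes.

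Ifi27l2a was the gene of this set that passed both thresholds. It lies on chromosome 12 (GRCm38, chr12:103442167-103443680, minus strand), next to Ifi27 (chr12:103434211-103440239, plus strand), and the pair spans 9470 bases. Ifi27l2a was at 434, 370 and 294 CPM in Ptgs-competent TAMs and 1242, 2116 and 2182 CPM in Ptgs-deficient TAMs, from 2722, 2254 and 1362 against 6809, 17768 and 10547 counts. The groups were far apart, and the lowest Ptgs-deficient library was above the highest Ptgs-competent library. The mean rose from 366 ± 70.2 to 1847 ± 525 CPM (SD, n = 3 per group), a 5.05-fold difference of means. Its log2 fold change in the edgeR fit was 2.34 ± 0.34 (SE) at an adjusted p of 0.0330, and the gene ranked 12 by p among the 8793. The call depended on which library was left out. It held without Ptgs-competent replicate 3 (adjusted p = 0.0431). It was lost in the other 5 fits, when Ptgs-competent replicate 1 (0.0791) or 2 (0.123) or Ptgs-deficient replicate 1 (0.0672), 2 (0.183) or 3 (0.205) was left out, and in these 6 fits the log2 fold change stayed between 2.20 and 2.58.

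Ifi27, its neighbor, was not called and overlapped between the groups. It was at 179, 236 and 73.9 CPM in Ptgs-competent TAMs and 163, 111 and 125 CPM in Ptgs-deficient TAMs. Ptgs-competent replicate 3 lay below all other libraries and replicate 2 above them. The means were 163 ± 82.1 and 133 ± 26.6 CPM (SD, n = 3 per group). By edgeR, this was a log2 difference of -0.29 ± 0.49 (SE), at an adjusted p of 0.9995. Over the fits that left out 1 library, the log2 fold change ran from -0.59 without Ptgs-competent replicate 3 to 0.073 without Ptgs-competent replicate 2. Without replicate 3, the 3 Ptgs-deficient libraries lay below both remaining Ptgs-competent libraries, as for 13.2% of all tested genes.

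Among the counts of the IFI27 pair, Ifi27l2a made up 70.8%, 61.1% and 79.9% in Ptgs-competent TAMs and 88.4%, 95.0% and 94.6% in Ptgs-deficient TAMs. The groups did not overlap in this share. The summed level of the pair was 529 ± 140 CPM in Ptgs-competent and 1980 ± 499 CPM in Ptgs-deficient TAMs (SD, n = 3 per group), 3.75-fold higher. Such a sum does not depend on how reads were divided between the neighbors. The relative Ifi27l2b had 1 count in all 6 libraries together, in Ptgs-deficient replicate 3. Little sequence was shared in the part that the 3′ libraries read. Of 414 windows of 50 bases in the last 500 bases of Ifi27l2a transcripts, 2 (0.483%) also occurred in Ifi27l2b, and none of the 976 windows of Ifi27 occurred in another gene. These windows count exact matches of 50 bases in the last 500 bases, and other ways of sharing reads were not examined.

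The 4 IFITM genes lie within 63088 bases of chromosome 7 (GRCm38) in the order Ifitm2 (chr7:140954837-140955987, minus), Ifitm1 (chr7:140967221-140969825, plus), Ifitm3 (chr7:141009586-141010770, minus) and Ifitm6 (chr7:141015699-141017924, minus). Promoters are shown for Ifitm3, Ifitm2 and Ifitm1, because Ifitm3 and Ifitm1 differed in opposite directions between the groups, with Ifitm2 from the same cluster beside them. The sequences are those of RefSeq (GRCm38.p6), from 250 bases before the annotated start to 50 bases from it on. They were searched on both strands for an ISRE core (TTTCNNTTTC, which reads GAAANNGAAA on the other strand) and a GAS core (TTCNNNGAA), and matches are in capitals. In Ifitm3 the GAS core overlaps the second ISRE core, and the stretch TTCTGAGAAACCGAAA holds both.
Ifitm3 (chr7:141010695-141010994, minus strand): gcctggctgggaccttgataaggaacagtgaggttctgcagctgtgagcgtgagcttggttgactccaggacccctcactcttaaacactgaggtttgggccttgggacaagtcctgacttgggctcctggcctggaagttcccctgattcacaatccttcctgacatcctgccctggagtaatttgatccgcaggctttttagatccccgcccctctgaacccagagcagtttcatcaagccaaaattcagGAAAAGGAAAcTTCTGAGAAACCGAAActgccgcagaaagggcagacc
Ifitm2 (chr7:140955912-140956211, minus strand): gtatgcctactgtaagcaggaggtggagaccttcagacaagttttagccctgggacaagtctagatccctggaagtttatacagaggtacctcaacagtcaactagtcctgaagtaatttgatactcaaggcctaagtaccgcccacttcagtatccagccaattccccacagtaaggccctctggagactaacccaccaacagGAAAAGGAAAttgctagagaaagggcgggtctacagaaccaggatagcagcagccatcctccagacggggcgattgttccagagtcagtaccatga
Ifitm1 (chr7:140967826-140968125, plus strand): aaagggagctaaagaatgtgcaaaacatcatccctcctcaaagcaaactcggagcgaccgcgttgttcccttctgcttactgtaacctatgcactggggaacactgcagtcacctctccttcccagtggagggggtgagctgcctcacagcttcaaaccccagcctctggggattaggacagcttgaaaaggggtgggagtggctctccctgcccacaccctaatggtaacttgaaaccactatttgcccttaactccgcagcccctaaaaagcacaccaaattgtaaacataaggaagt

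The Ifitm3 window held 2 ISRE cores, beginning at bases 3 and 20 from the start, and a GAS core at base 14. The Ifitm2 window held 1 ISRE core, beginning 46 bases before the start. The Ifitm1 window held neither motif. That window lies inside the annotated gene, which begins upstream at chr7:140967221, and bases before that start were not searched. Of 27025 genes with promoter windows in the table, 3.99% had an ISRE core and 9.55% a GAS core in at least 1 window (3.44% and 8.3% of the 32851 windows). For the 10 genes, 7 had a window in the table, and the windows of 3 (Ifitm2, Ifitm3 and Ifi203) held an ISRE core while those of 3 (Ifitm3, Ifitm6 and Ifi35) held a GAS core. A match describes the letters and is not evidence of a bound site, and the absence of these letters says nothing about other elements.

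Ifitm3, whose protein acts in endosomes against incoming viruses, was at 1435, 1107 and 560 CPM in Ptgs-competent TAMs and 2166, 2520 and 2491 CPM in Ptgs-deficient TAMs. Every Ptgs-deficient library was above every Ptgs-competent library, and Ptgs-competent replicate 3 was lowest. The means were 1034 ± 442 and 2392 ± 197 CPM (SD, n = 3 per group), a 2.31-fold difference. In the edgeR fit the log2 fold change came to 1.21 ± 0.37 (SE) at an unadjusted edgeR p of 0.00822 and an adjusted p of 0.292. Ifitm3 was therefore not called. Its log2 fold change ran from 0.96 without Ptgs-competent replicate 3 to 1.52 without Ptgs-competent replicate 1 (adjusted p of 0.264 and 0.188). The adjusted p was 0.0300 with no filter on low counts, 0.0121 with DESeq2 and 0.0157 with limma voom, where the log2 fold change was 1.21, 1.18 and 1.24 and thus below that asked of a call.

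Ifitm1, which encodes a family member found mostly at the cell surface, differed in the other direction. It was at 536, 259 and 245 CPM in Ptgs-competent TAMs and 0, 25.2 and 27.9 CPM in Ptgs-deficient TAMs, from 3361, 1577 and 1138 against 0, 212 and 135 counts. The groups did not overlap, and Ptgs-deficient replicate 1 held no count, which allows up to 0.547 CPM (3 counts) by counting error alone. The means were 347 ± 164 and 17.7 ± 15.4 CPM (SD, n = 3 per group), 19.6-fold lower in Ptgs-deficient TAMs. The fit gave a log2 fold change of -4.29 ± 1.22 (SE) at an unadjusted edgeR p of 0.00561 and an adjusted p of 0.247. It was thus not called, in spite of the size of the difference. Ifitm1 was called lower in 4 of 14 alternative fits (no filter on low counts, the likelihood ratio test, DESeq2 and limma voom), which called 0.972%, 1.19%, 1.76% and 0.682% of all tested genes lower, and its log2 fold change lay between -4.77 and -3.68 in all of them.

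Ifitm2, which encodes another endosomal member, was at 210, 224 and 110 CPM in Ptgs-competent TAMs and 219, 296 and 157 CPM in Ptgs-deficient TAMs. These ranges overlapped. Its fold change was 0.31 ± 0.42 (SE) on the log2 scale, at an adjusted p of 0.9995. It ran from 0.056 without Ptgs-deficient replicate 2 to 0.51 without Ptgs-deficient replicate 3. Ifitm6 was at 4.14, 0 and 37.9 CPM in Ptgs-competent TAMs and 35.8, 65.4 and 53.8 CPM in Ptgs-deficient TAMs, from 26, 0 and 176 against 196, 549 and 260 counts. It overlapped only through Ptgs-competent replicate 3, which lay just above Ptgs-deficient replicate 1. For Ifitm6 the log2 fold change was 1.88 ± 1.68 (SE) at an adjusted p of 0.9995. It ran from 1.30 without Ptgs-competent replicate 2 to 4.66 without replicate 3 of that group, at adjusted p of 0.910 and 0.484.

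As a share of the counts of all 4 IFITM genes, Ifitm1 took 24.5%, 16.3% and 25.7% in Ptgs-competent TAMs and 0%, 0.869% and 1.02% in Ptgs-deficient TAMs. The count of 0 allows a share of up to 0.0226% (3 counts of 13266, counting error only). Ifitm3 took 65.7%, 69.6% and 58.8% against 89.5%, 86.7% and 91.2%. Neither share overlapped between the groups, so that the make-up of the IFITM transcripts differed in every library of one group from every library of the other. The shares divide 1 total, so the higher Ifitm3 share (24.4 percentage points) and the lower Ifitm1 share (-21.5) are not separate results. The mean share of Ifitm1 was 22.2 ± 5.14% against 0.631 ± 0.552%, and that of Ifitm3 was 64.7 ± 5.49% against 89.1 ± 2.28% (SD, n = 3 per group). The difference for Ifitm1 stayed between -24.5 and -19.8 percentage points when any single library was left out. Ifitm2 took 11.7 ± 2.25% against 8.33 ± 2.29% and Ifitm6 took 1.39 ± 2.24% against 1.90 ± 0.391% (SD, n = 3 per group), both with overlapping ranges. The difference of 0.51 percentage points for Ifitm6 had no stable sign, at -0.090 and -0.19 without Ptgs-competent replicates 1 and 2 and 1.80 without replicate 3. The summed IFITM level was 2185, 1589 and 953 CPM in Ptgs-competent TAMs and 2421, 2906 and 2730 CPM in Ptgs-deficient TAMs. It did not overlap and was 1.70-fold higher on average. As a percent of the summed macrophage markers, a scaling described further on, the IFITM sum overlapped, at 13.4%, 8.99% and 14.8% against 11.8%, 14.5% and 11.6%. Shares are compared here between libraries for the same gene and do not rank the genes against each other. With 3 libraries against 3, an exact permutation test of a share cannot give a p below 0.1, and none was run.

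**Figure D2:**
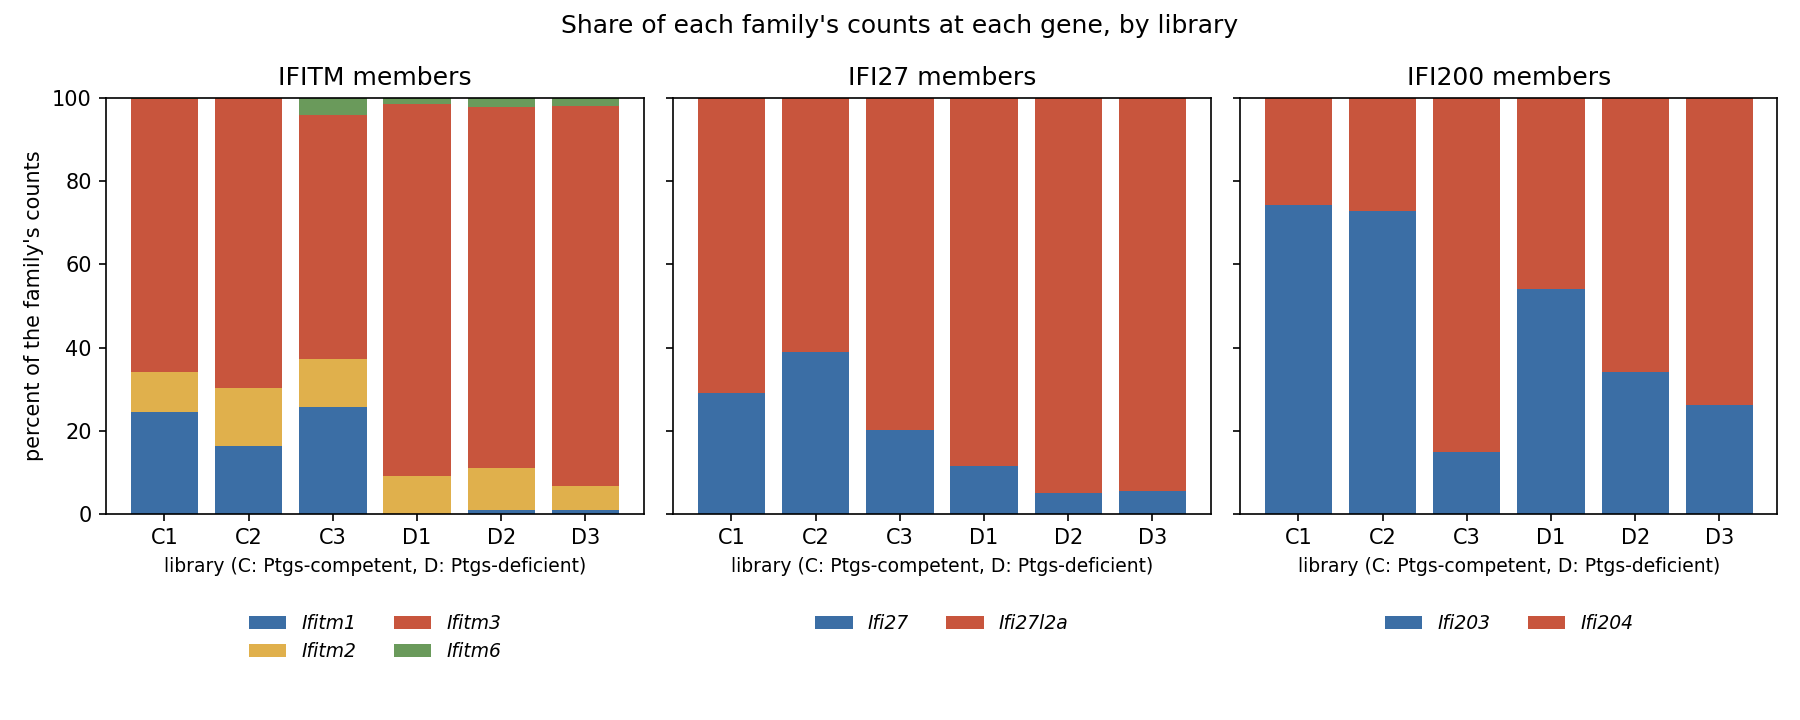
Percent of the counts of each family found at each of its genes, for the IFITM, IFI27 and IFI200 genes in the 6 libraries (C1 to C3 Ptgs-competent, D1 to D3 Ptgs-deficient). Ifitm1 takes 16.3% to 25.7% of IFITM counts in the Ptgs-competent libraries and at most 1.02% in the Ptgs-deficient libraries, and Ifi27l2a takes more of the IFI27 counts in each Ptgs-deficient library, while the IFI200 shares of the groups overlap.

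IFITM paralogs are alike in sequence, and how reads with several alignments were treated was not stated. Of 451 windows of 50 bases near the 3′ end, Ifitm1 shared 53 (11.8%) with other genes, 39 of them with the gene Gm7676 and 15 with Ifitm3. Ifitm3 shared 63 (14%), and Ifitm2 shared 189 (41.9%), 114 of them with Gm45717, which overlaps Ifitm2 on the same strand. Ifitm6 shared none of 458. Gm7676 had 4 counts in all 6 libraries together, Gm11951, Gm8865 and Gm2840 had none, and Gm45717, Gm45308 and Gm45432 were not matched in the table. Ifitm2 was thus the family member whose count was most open to such losses, and no value here shows how many reads were lost.

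The 2 IFI200 genes lie on chromosome 1 (GRCm38), Ifi204 at chr1:173747293-173766943 and Ifi203 at chr1:173920407-173942672, both on the minus strand. Ifi204, which encodes a protein of cytosolic DNA sensing and macrophage differentiation, was at 31.4, 24.0 and 72.6 CPM in Ptgs-competent TAMs and 113, 251 and 265 CPM in Ptgs-deficient TAMs. The groups did not overlap, and Ptgs-competent replicate 3 was the highest of its group. The means were 42.7 ± 26.2 and 210 ± 83.9 CPM (SD, n = 3 per group), a 4.92-fold difference. On the log2 scale the fold change was 2.30 ± 0.58 (SE) at an unadjusted edgeR p of 0.00267 and an adjusted p of 0.190, so that Ifi204 was not called. It was called in 3 of 14 alternative fits (no filter on low counts, the likelihood ratio test and DESeq2), which called 0.913%, 1.55% and 1.97% of all tested genes higher (limma voom 0.716%), and its log2 fold change ran from 2.02 without Ptgs-competent replicate 2 to 2.97 without replicate 3 of that group.

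Ifi203, which encodes a nuclear member of the family, was at 91.0, 64.0 and 12.7 CPM in Ptgs-competent TAMs and 133, 130 and 94.2 CPM in Ptgs-deficient TAMs. The ranges did not overlap, but the highest Ptgs-competent and the lowest Ptgs-deficient library were close. The means were 55.9 ± 39.8 and 119 ± 21.6 CPM (SD, n = 3 per group). In the edgeR fit the log2 fold change came to 1.09 ± 0.70 (SE) at an unadjusted edgeR p of 0.149 and an adjusted p of 0.890. It ran from 0.67 without Ptgs-competent replicate 3 to 1.64 without Ptgs-competent replicate 1. Ifi203 overlaps Mndal on the same strand, exons included, and its counts may hold or lack reads of the shared part. In the 3′ windows, Ifi203 shared 10 of 902 (1.11%) and Ifi204 10 of 451 (2.22%) with other genes, chiefly pseudogenes, and Ifi203-ps had 71 counts in all 6 libraries together.

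Of the Ifi203 promoter windows in the same RefSeq table, the one shown held an ISRE core (capitals), which begins 35 bases before the start.
Ifi203 (chr1:173942443-173942742, minus strand): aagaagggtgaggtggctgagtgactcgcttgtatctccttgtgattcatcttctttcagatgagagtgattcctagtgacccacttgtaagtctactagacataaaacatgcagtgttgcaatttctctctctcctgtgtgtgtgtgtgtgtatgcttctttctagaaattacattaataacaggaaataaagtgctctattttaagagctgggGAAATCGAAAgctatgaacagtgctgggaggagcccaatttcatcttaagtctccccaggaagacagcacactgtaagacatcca

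A second annotated start of Ifi203 lies upstream, and its window held neither motif. Ifi204 and Ifi203 did not keep a fixed proportion. Ifi204 made up 25.7%, 27.2% and 85.1% of the counts of the pair in Ptgs-competent TAMs and 46.0%, 65.9% and 73.8% in Ptgs-deficient TAMs. The shares overlapped through Ptgs-competent replicate 3, and the mean difference of 15.9 percentage points was 35.4 without that library, 5.72 and 6.51 without Ptgs-competent replicates 1 and 2, and 23.9, 13.9 and 9.93 without Ptgs-deficient replicates 1, 2 and 3. The summed level was 98.6 ± 20.7 CPM against 329 ± 72.1 CPM (SD, n = 3 per group), 3.34-fold higher in Ptgs-deficient TAMs and without overlap, from 85.4 to 122 against 247 to 380 CPM.

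The other IFI200 genes were examined as a list of 11, of which 7 passed the filter. None was called by edgeR's quasi-likelihood test, and 2 (AI607873 and Pydc3) were called higher by DESeq2, beside 1.97% of all tested genes. At an unadjusted p under 0.05, 4 were higher in Ptgs-deficient TAMs, beside 5% of all tested genes. All 7 were fitted higher, beside 50.7%, with a median log2 fold change of 2.43 beside 0.018 for all tested genes. Pydc3 passed the filter through the Ptgs-deficient group alone and could only be fitted higher, and Pyhin1 passed mainly through that group. Both are among the 4 at an unadjusted p under 0.05, so these tallies were fixed in part by the filter. AI607873 (Ifi207) was at 69.6, 26.8 and 14.9 CPM in Ptgs-competent TAMs and 178, 235 and 189 CPM in Ptgs-deficient TAMs. That is 2.43 ± 0.61 (SE) on the log2 scale, at an unadjusted p of 0.00253 and an adjusted p of 0.187. Pydc3 (Ifi208) had 0 counts in every Ptgs-competent library and 176, 211 and 95 in the Ptgs-deficient libraries, with an adjusted p of 0.291. Against a floor of 3 counts per library, which covers counting error only, Pydc3 was at least 47.6-fold higher. Pyhin1 (Ifi209) had 139, 1 and 0 against 840, 1315 and 304 counts, with an adjusted p of 0.468. Mndal had 159, 20 and 411 against 734, 1662 and 797 counts, with an adjusted p of 0.537. These 4 genes and Pydc4 were higher without overlap between the groups, which held for 11% of all tested genes. Aim2, the receptor of the DNA-sensing inflammasome, was at 111, 78.9 and 12.3 CPM against 92.7, 68.5 and 45.9 CPM, with a log2 fold change of 0.03 ± 0.80 (SE). Genes below the filter included Gm4955 (Ifi206), with counts only in Ptgs-deficient replicates 2 and 3 (295 and 199), and Ifi202b, with counts only in Ptgs-competent replicate 3 (54). The IFI200 genes are neighbors with related sequences, and their values are not independent of each other if reads were shared.

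**Figure D3:**
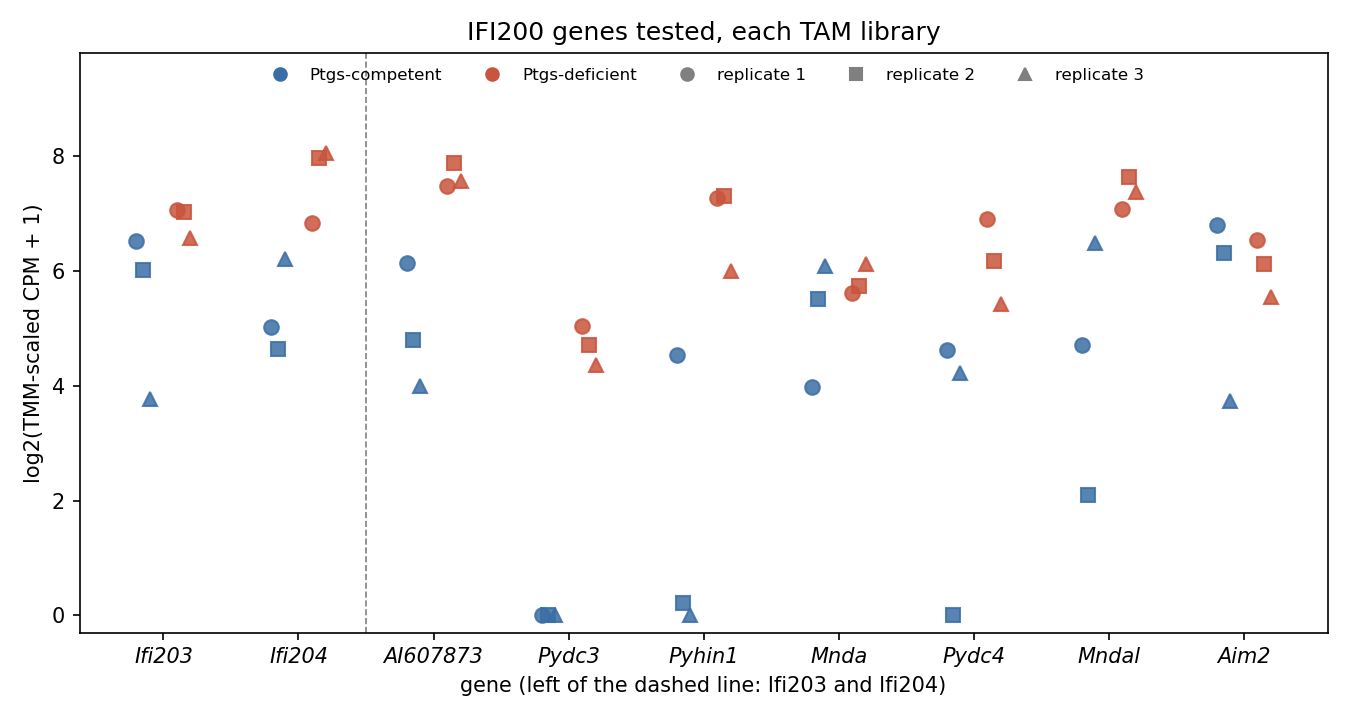
Levels of the 9 tested IFI200 genes in each library, as log2 of TMM-scaled CPM plus 1 (vertical axis), by gene (horizontal axis). Ifi203 and Ifi204 stand left of the dashed line. Points of Ptgs-deficient libraries lie above all Ptgs-competent points for Ifi203, Ifi204, AI607873, Pydc3, Pyhin1, Pydc4 and Mndal, and overlap with them for Mnda and Aim2.

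Ifi35 and Ifi44 belong to neither family. Ifi35 (chr11:101448407-101458698, plus strand) encodes a partner of the protein Nmi. It was at 63.6, 115 and 104 CPM in Ptgs-competent TAMs and 77.9, 107 and 87.9 CPM in Ptgs-deficient TAMs. The ranges overlapped almost wholly, with means of 94.3 ± 27.1 and 90.9 ± 14.7 CPM (SD, n = 3 per group). The log2 fold change was -0.05 ± 0.50 (SE) at an adjusted p of 0.9995, and its sign turned in 4 of 14 alternative fits. Ifi35 overlaps Gm11626 on the opposite strand, and Gm11626 had no count in any library. Nmi was at 23.3, 69.3 and 65.7 against 66.2, 127 and 99.7 CPM, or 0.89 ± 0.64 (SE) on the log2 scale at an adjusted p of 0.951.

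Ifi44 (chr3:151730922-151749960, minus strand), which encodes a cytoplasmic interferon-induced protein, was at 16.3, 0 and 0 CPM in Ptgs-competent TAMs and 0, 46.3 and 64.1 CPM in Ptgs-deficient TAMs, from 102, 0 and 0 against 0, 389 and 310 counts. Both groups thus held libraries without a single count, next to 2 Ptgs-deficient libraries with 310 and 389 counts. In the fit this was 2.76 ± 2.64 (SE) on the log2 scale at an adjusted p of 0.9995, and the estimate ran from 2.10 to 10.8 (without Ptgs-competent replicate 1) over the alternative fits. No Ifi44l count was found in any library. Ifi44, Ifitm6 and Ifitm1 were the genes of the set with a library at 0, and their errors were the largest of the 10.

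**Figure D4:**
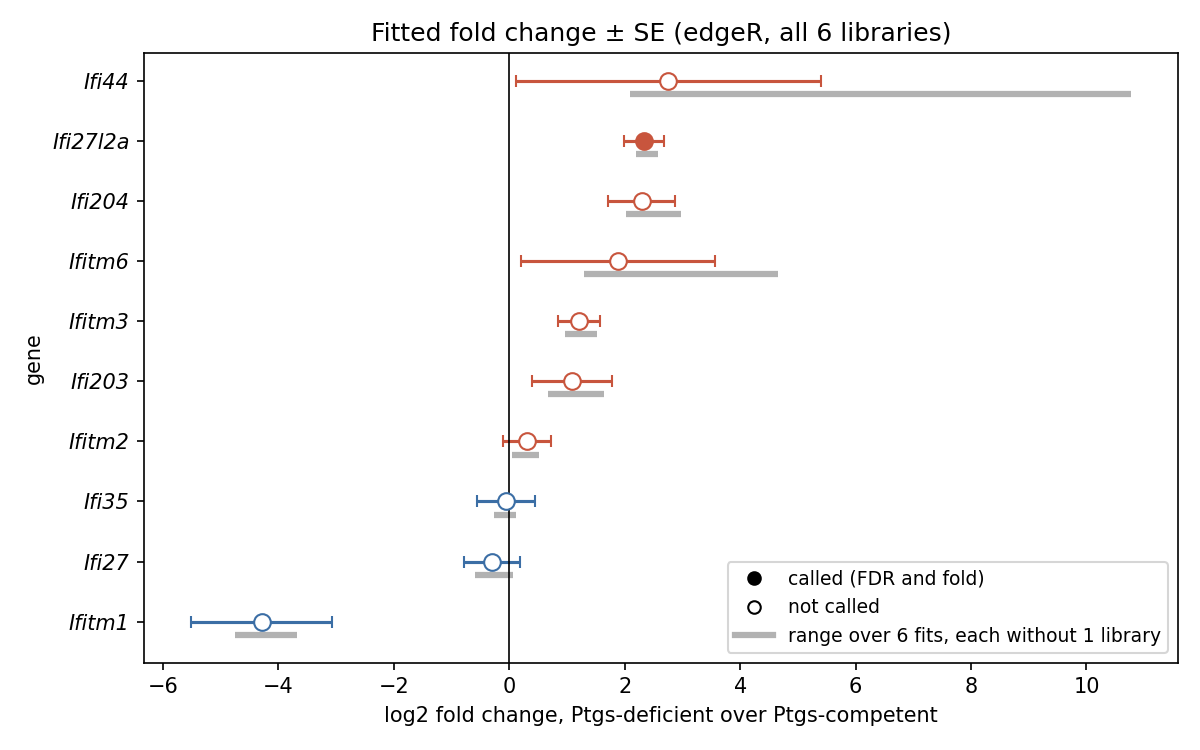
Fitted log2 fold change (horizontal axis) of the 10 genes, Ptgs-deficient over Ptgs-competent, from edgeR on all 6 libraries. Circles are estimates with SE bars, filled where the gene was called, and grey bars give the range over 6 fits that each leave out 1 library. Ifi27l2a is the filled point at 2.34, Ifitm1 lies at -4.29, and the grey bars of Ifi27 and Ifi35 cross 0.

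The interferon pathway itself was examined in the same fit. Of 11 interferon genes, 10 had no count in any library, and Ifng had 1, 2 and 0 against 0, 0 and 1 counts. None of 8 tested receptor and kinase genes had an unadjusted p under 0.05. Over all tested genes, 5% were higher at that level and 3.82% lower. Among 9 transcription factors, 2 were higher at that level and none was called by edgeR or DESeq2. Irf7, which drives type I interferon production, was at 154, 277 and 74.4 CPM in Ptgs-competent TAMs and 481, 430 and 464 CPM in Ptgs-deficient TAMs. The ranges of Irf7 did not overlap, as for 11% of all tested genes that were higher, and its log2 difference was 1.44 ± 0.46 (SE) at an adjusted p of 0.301. Irf1 differed by 1.46 ± 0.56 (SE) on the log2 scale, at an adjusted p of 0.412. Of 6 feedback inhibitors, 1 (Ptpn2, a phosphatase acting on Janus kinases) had an unadjusted p under 0.05, from 5, 0 and 0 against 191, 239 and 219 counts and with an adjusted p of 0.357. DESeq2, with 1.97% of all genes called higher, called Ptpn2. Of 11 genes of cytosolic DNA sensing and the inflammasome, none was called by edgeR or DESeq2, 2 were higher at an unadjusted p under 0.05, beside 5% of all tested genes, and 5 were higher without overlap, beside 11%. The smallest p were those of Dhx9, an RNA helicase, at 2.06 ± 0.66 (SE) on the log2 scale and an adjusted p of 0.305, and Samhd1, a nucleotide phosphohydrolase, with 1.07 ± 0.39 (SE) and an adjusted p of 0.376.

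Markers of other cell types differed along with some of these results. As above, 5% of all tested genes were higher and 3.82% lower at an unadjusted p under 0.05, and 11% and 8.01% were so without overlap. Of all the markers listed, edgeR's quasi-likelihood test called 1, the dendritic cell marker Batf3 (higher, adjusted p = 0.0324), where it called 0.159% of all tested genes higher. DESeq2, with 1.97% of all tested genes called higher and 1.76% lower, called Batf3, Ccr2, Klrk1 and Ighm higher and Sparc lower. The fibroblast and endothelial markers summed to 427, 470 and 1006 CPM in Ptgs-competent TAMs and 98.9, 91.1 and 92.3 CPM in Ptgs-deficient TAMs. All 7 tested of 10 were fitted lower in Ptgs-deficient TAMs, 3 of them at an unadjusted p under 0.05, and Lum and Cdh5 had no count. Sparc, a matrix protein gene, had 1128, 765 and 2785 against 124, 148 and 178 counts. This is the direction of Ifitm1. The sort selected for CD45 and CD11b, and these transcripts were counted after it. The part of such cells in the Ifitm1 difference was not tested. Inflammatory monocyte markers summed to 2468, 1703 and 853 CPM against 4576, 5217 and 4895 CPM. Of 7 tested, 4 were fitted higher, 3 of them at an unadjusted p under 0.05, and 3 lower (Vcan, Hp and Treml4). Most of the sum was a single gene, F13a1, at 1961, 1297 and 707 against 3686, 4012 and 3725 CPM. The monocyte marker sum differed in the direction of Ifi27l2a, Ifi204, Ifitm3 and Ifitm6, in cells gated on low or no Ly6C. Ly6c2 itself was at 49.2, 33.8 and 0.216 against 96.5, 283 and 239 CPM. The part of monocytes was not tested. Neutrophil markers summed to 621 to 724 CPM against 452 to 532 CPM with Ly6g at 0 throughout, and their part was not tested. Of 6 tested, 4 were fitted lower, among them S100a8 and S100a9, and 2 higher, Retnlg (log2 fold change 2.11, without overlap) and Csf3r (1.04). Natural killer and T cell markers summed to 0.657 to 164 CPM against 10.7 to 26.3 CPM, with 9 of 12 at 0, among them Ncr1 and Cd3e. The 2 tested went opposite ways, Klra4 with 371, 1 and 763 against 0, 49 and 8 counts and Klrk1 with 0, 0 and 0 against 144, 36 and 78. Dendritic cell markers summed to 0 to 14.5 CPM against 83.8 to 114 CPM, with Xcr1, Zbtb46 and Ccr7 at 0 and most of the difference in Batf3 (0, 0 and 1 against 586, 634 and 424 counts). B cell markers summed to 0 to 26.8 CPM against 15.0 to 106 CPM, with Ms4a1 among 4 of 6 at 0. The difference lay in Ighm, the immunoglobulin heavy chain gene, with 0, 0 and 0 against 82, 137 and 433 counts (adjusted p of 0.198 by edgeR's quasi-likelihood test). Against a floor of 3 counts per library, which covers counting error only, Ighm was at least 74.7-fold higher. Of 8 melanoma markers, 7 (Mlana, Pmel, Dct, Tyr, Tyrp1, Sox10 and S100b) had no count in any library, and Mitf had 12, 0 and 3 against 58, 372 and 88 counts, without overlap.

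**Figure D5:**
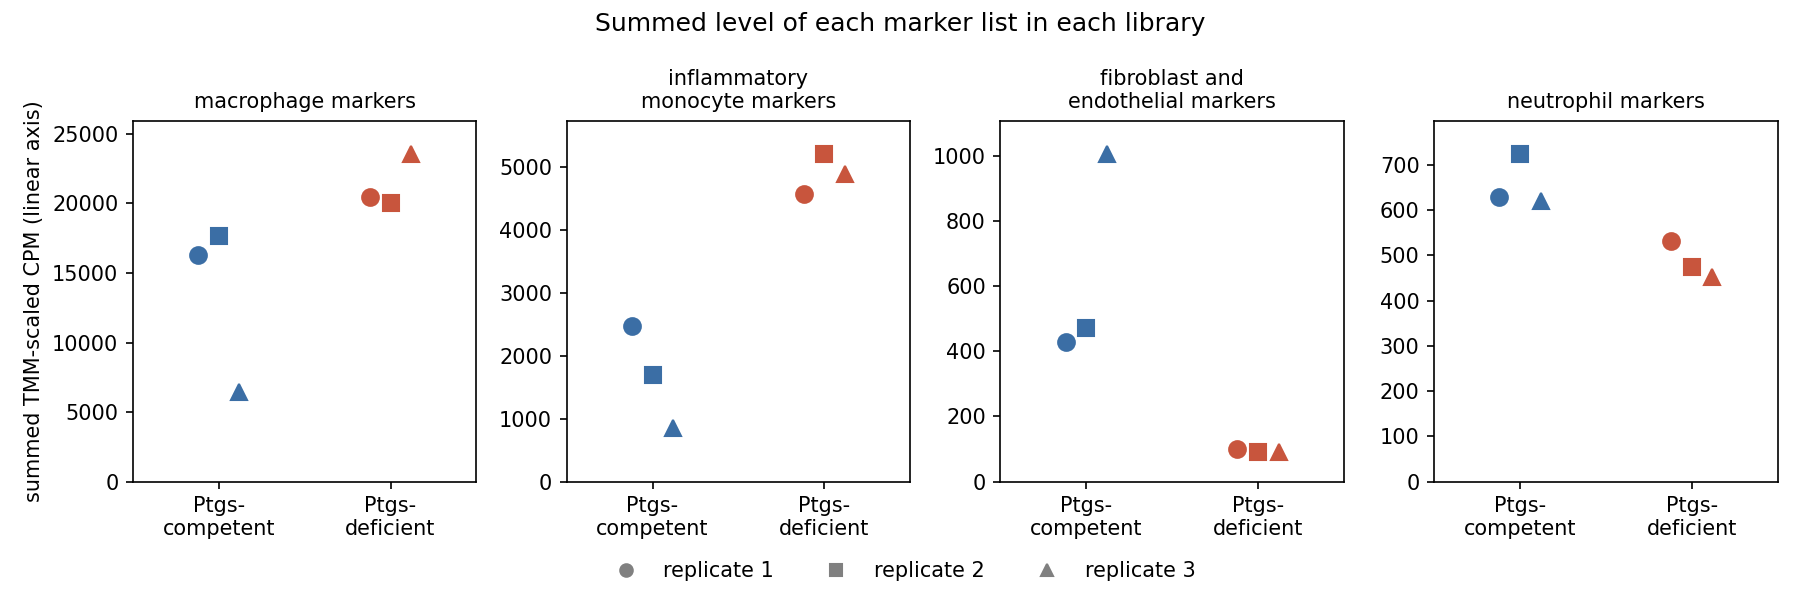
Summed TMM-scaled CPM (linear axis from 0) of 4 marker lists in each library, by group, with symbols for replicates. Ptgs-competent replicate 3 has the lowest macrophage sum (6440 CPM) and the highest fibroblast and endothelial sum (1006 CPM), and the groups do not overlap in any of the 4 lists.

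None of the 12 macrophage markers was called by edgeR or DESeq2. Of these markers, 10 were fitted higher in Ptgs-deficient TAMs, beside 50.7% of all tested genes, and 2 lower (Mertk and Ptprc), and 5 were higher at an unadjusted p under 0.05, beside 5%. Their sum was higher in every Ptgs-deficient library, and the level of each of the 10 genes was also taken as a percent of that sum in its library, a scaling chosen after the sums were seen. It lowers every gene in the Ptgs-deficient libraries relative to the CPM scale. It raises Ptgs-competent replicate 3 most, whose marker sum was lowest at 6440 CPM. Lyz2 and C1qa make up most of the sum. Over all tested genes, 5.37% were higher and 16.7% lower without overlap on this scale, in place of 11% and 8.01%. Ifi27l2a was then at 2.66%, 2.09% and 4.56% in Ptgs-competent TAMs and 6.06%, 10.6% and 9.25% in Ptgs-deficient TAMs. Ifitm3 was at 8.79%, 6.26% and 8.70% against 10.6%, 12.6% and 10.6%. Both remained higher without overlap. Ifi204 overlapped, at 0.192%, 0.136% and 1.13% against 0.553%, 1.25% and 1.13%, through Ptgs-competent replicate 3 alone, and Ifi203 overlapped as well. Ifitm1 remained lower, at 3.28%, 1.46% and 3.81% against 0%, 0.126% and 0.118%, and Ifi27, whose groups overlapped by CPM, was the other gene of the 10 that was lower without overlap. Of the family sums on this scale, that of the IFI27 pair remained higher without overlap, at 3.75%, 3.43% and 5.71% against 6.86%, 11.1% and 9.78%, while those of the IFITM genes and of Ifi203 with Ifi204 overlapped, the latter through Ptgs-competent replicate 3 (1.33%), which lay above Ptgs-deficient replicate 1 and below replicates 2 (1.90%) and 3 (1.52%).

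The tested genes whose levels followed Ifi27l2a most closely over the 6 libraries were Crip1, Egr2, Nabp1, H2-K1 and Sgcb, with Pearson correlations of log2 CPM from 0.991 to 0.997. The 6 points fall into 2 groups and share library size and scaling, and the genes were picked for this likeness, so that no p is given. Crip1, which encodes a small zinc-binding protein, was at 895, 893 and 684 CPM in Ptgs-competent TAMs and 2465, 3352 and 3449 CPM in Ptgs-deficient TAMs. H2-K1, a classical major histocompatibility complex class I gene, was at 947, 926 and 808 CPM against 2430, 3107 and 3165 CPM. Egr2, a transcription factor, was at 67.7, 49.6 and 36.6 CPM against 161, 285 and 322 CPM. Each was lowest in Ptgs-competent replicate 3 and, within the Ptgs-deficient group, lowest in replicate 1, as Ifi27l2a was.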

How the data were processed

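Whole-gene counts of 3′-end RNA libraries (QuantSeq FWD, sub-nanogram RNA input, no molecular identifiers stated) from 6 sorted TAM samples were analysed. The authors deposited raw counts per gene, made by trimming with BBDUK, fqtrim and cutadapt, alignment with STAR to GRCm38 and featureCounts on Ensembl annotation 86. Versions, strand setting and treatment of reads with several alignments are not given in the sources used here, and PCR copies cannot be told from molecules, so intervals and floors cover counting error only.

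Counts were tested in R 4.3.3 with edgeR 4.0.16 (filterByExpr, TMM, quasi-likelihood test, two-sided, Benjamini-Hochberg adjustment over 8793 genes). The study names an edgeR generalized linear model test without saying which. A call needed a false discovery rate of at most 0.05 and an absolute log2 fold change of at least 1.5. CPM were scaled by TMM over tested genes. The SE is the absolute log2 fold change over the square root of F. The floor is 3 counts, 0.357 to 0.647 CPM. Alternatives used limma 3.58.1 and DESeq2 1.42.0. The scripts were tested on simulated data. Labels gave each sample's group and replicate number. The p-values measure the spread between tumor pools.

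The genes and lists were chosen with earlier results of these data known. All 10 genes were named, with up to 4 genes of smallest p per pathway list, other list genes by count or level, and the 5 genes most correlated with Ifi27l2a. Aim2, Nmi, Batf3, other marker genes and genes below the filter were singled out after their values were seen. Positions are from GENCODE M21 (GRCm38), counted from 1, and promoters from RefSeq GRCm38.p6. Ifi27l2a, Ifi27 and Ifi204 promoters and proteins were not analysed here, nor were Ifi27l1 and Ifitm4p.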

Additional observations from a re-analysis of the deposited data

How the results depend on the processing

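Fold changes of 8 of the 10 genes kept their sign in all 14 alternative fits, and those of Ifi27 and Ifi35, which were near 0, did not. The number of genes called higher was 1 (Ifi27l2a), and 2 (Ifi27l2a and Ifi204) with no filter beyond 1 count, with edgeR's likelihood ratio test and with DESeq2. The number called lower was 0, and 1 (Ifitm1) in these 3 settings and with limma voom. Over all genes, 14 were called higher and 5 lower, against 122 and 130, 136 and 105, 173 and 155, and 63 and 60 in those 4 settings. Leaving out each library gave 0 to 1 genes called higher and 0 called lower. Over these fits Ifi27 ran from -0.59 to 0.073, turning positive without Ptgs-competent replicate 2, and Ifi35 from -0.27 to 0.12. Ifi35 turned to 0.13 with limma voom, to 0.12 and 0.082 without Ptgs-competent replicates 2 and 3 and to 0.086 without Ptgs-deficient replicate 1. The median of all genes moved to 0.39 with limma voom, 0.26 with the replicate block and 0.14 and 0.13 without Ptgs-competent replicates 1 and 3. Same-numbered libraries did not deviate together (correlations -0.049, -0.022 and -0.022). With 3 libraries a group, these values cannot exclude that the numbers pair libraries. With the replicate block, 1 gene was called higher (Ifi27l2a, adjusted p = 0.00956) and 0 lower, and the calls over all genes were 49 and 28. The cause of these changes was not tested. The differences of Ifi44 and Ifitm6, each with at least 1 library at 0 counts, were not resolved. They were 2.76 ± 2.64 and 1.88 ± 1.68 (SE) on the log2 scale.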
